A study of Mus musculus with 3 samples.

Results

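Hox genes were examined on 3 whole-transcript arrays of mouse RNA. They are the genes of the Hoxa, Hoxb, Hoxc and Hoxd clusters, taken as the array rows annotated with a single symbol made of one of these names and a number. The rule, which uses names and no measured value, found 36 of the 22180 genes on the array. Hoxa11 and Hoxd4 had rows only under a symbol shared with another gene and were not members. Each member had 1 probe set, a group of short probes read as a single value, except Hoxb5, which had 2.

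The first array held RNA of FULA 1, a lung adenocarcinoma line of mouse grown in Dulbecco's modified Eagle's medium with fetal bovine serum. The second held RNA of lung from mice of the inbred FVB strain that had been injected with saline. The third held RNA of FVB lung taken a week after intraperitoneal urethane, a carcinogen that gives lung tumours in mice. The labels do not say how many mice gave RNA to either lung array, how old they were, how long after saline the lung was taken, or from which strain FULA 1 came. A tumour line is a culture of tumour cells alone, whereas lung tissue holds epithelium, fibroblasts, muscle, endothelium and blood cells together. In such bulk RNA, fewer cells of a type and less RNA per cell cannot be told apart. There was 1 array per group and no replicate, so no test was possible, no p-value is given, and all differences are between these arrays rather than between conditions.

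Hox genes encode homeodomain transcription factors that give cells their identity along the axis from head to tail. Mammals carry them in 4 clusters on different chromosomes, numbered by position, and genes with the same number in different clusters are paralogues. Low-numbered genes are used early and towards the head, high-numbered genes later and towards the tail, the limbs and the urogenital tract. In the lung, Hox genes of the middle of the clusters, Hoxa5 and Hoxb5 among them, are known from the mesenchyme around the branching airways. Polycomb proteins keep silent Hox genes silent, and trithorax proteins of the MLL family keep active Hox genes active.

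The promoters of 4 members are shown because these genes span the patterns described below. Hoxa5 and Hoxa6 are neighbours that were both much lower on FULA 1, Hoxd8 stood above the background mark on all 3 arrays, and Hoxd13 stood below it on all 3. Each is the stretch of 250 bases before the gene's start, from RefSeq (GRCm38.p6), 5′ to 3′ on the gene's strand, with every CG dinucleotide in capitals. Hoxa5 is at chr6:52204588-52204837 (minus strand), Hoxa6 at chr6:52208673-52208922 (minus strand), Hoxd8 at chr2:74704365-74704614 (plus strand) and Hoxd13 at chr2:74667975-74668224 (plus strand).
Hoxa5: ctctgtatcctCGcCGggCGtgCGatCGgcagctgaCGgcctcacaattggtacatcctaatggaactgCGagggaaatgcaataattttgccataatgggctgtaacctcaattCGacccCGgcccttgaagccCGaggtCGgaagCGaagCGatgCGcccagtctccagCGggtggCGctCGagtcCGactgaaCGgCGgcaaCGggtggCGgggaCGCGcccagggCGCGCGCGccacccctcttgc
Hoxa6: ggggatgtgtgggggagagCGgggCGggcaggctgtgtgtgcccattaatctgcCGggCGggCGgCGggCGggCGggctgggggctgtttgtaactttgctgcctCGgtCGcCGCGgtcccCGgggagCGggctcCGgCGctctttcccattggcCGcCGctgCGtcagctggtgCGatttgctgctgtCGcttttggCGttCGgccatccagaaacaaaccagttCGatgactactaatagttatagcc
Hoxd8: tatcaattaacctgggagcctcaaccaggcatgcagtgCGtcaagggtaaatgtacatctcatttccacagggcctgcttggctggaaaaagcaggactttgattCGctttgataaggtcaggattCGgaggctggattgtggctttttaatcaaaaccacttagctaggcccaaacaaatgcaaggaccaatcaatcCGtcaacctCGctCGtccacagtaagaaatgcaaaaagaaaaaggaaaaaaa
Hoxd13: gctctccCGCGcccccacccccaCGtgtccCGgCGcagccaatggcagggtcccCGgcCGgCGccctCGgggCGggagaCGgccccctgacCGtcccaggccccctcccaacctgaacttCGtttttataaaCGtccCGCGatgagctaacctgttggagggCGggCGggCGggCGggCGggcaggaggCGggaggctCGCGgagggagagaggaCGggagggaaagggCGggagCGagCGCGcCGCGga
The capitals show 28 CG dinucleotides before Hoxa5, 24 before Hoxa6, 31 before Hoxd13 and 6 before Hoxd8. The table of promoters held 22 promoters of 20 members, with a median of 12.5 CG dinucleotides against 6 over all 32851 promoters of that length. The motif CCAAT, searched on both strands, was present in 13 of the 22 promoters (59.1%) and in 33.8% of all promoters. TATAAA was present in 3 (13.6%, against 12.4% of all), those of Hoxa10, Hoxb8 and Hoxd13. TGATTNAT, the composite site of a Hox protein and its cofactor Pbx, was present in 2 (9.09%, against 2.82%), those of Hoxa2 and Hoxd11. These matches describe letters in a window and were not related to binding.

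The deposited columns lay on unequal scales, with medians over all probe sets of 4.96 on FULA 1 and of 0.08 and 1.22 on the lungs of saline and urethane mice (log2). Levels below are therefore log2 values after quantile normalization, which gives the 3 arrays the same distribution, or percentile ranks among the 22180 genes of an array, which no rescaling of an array changes. Probe sets differ in how strongly they respond, so a rank places a signal and not a number of transcripts. The background mark of an array is the 95th percentile of its 1105 olfactory receptor genes, whose transcripts belong to sensory neurons of the nose. It lay at a normalized value of 1.96 on FULA 1, and at 2.47 and 2.44 on the lungs of saline and urethane mice. A gene at the mark on both FULA 1 and the saline lung would thus differ by -0.50 (log2) from the mark alone. Many lung values are coarse. Of the probe sets, 48.4% after saline and 47.2% after urethane shared a value, against 22.6% on FULA 1. Ties reached members above the mark. On the urethane lung the values of Hoxa7 and Hoxb1 were held by 412 and 559 probe sets. On the saline lung those of Hoxb4 and Hoxb1 were held by 400 and 267. The commonest value was shared by 934 probe sets after saline and 1277 after urethane, against 112 on FULA 1.

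Most Hox genes gave no signal above background on FULA 1. Only 4 of the 36 (11.1%) lay above the mark there, whereas 58.2% of all genes did. With the mark at the 90th percentile of the receptors the count was 14, against 25 after saline and 22 after urethane. The shares of all genes at that looser mark are not given here, so those counts have no background beside them. On the saline lung 18 members (50.0%) were above the mark, beside 49.6% of all genes, and on the urethane lung 17 (47.2%), beside 49.0%. The lungs' shares of Hox genes were thus close to those of all genes, and the share on FULA 1 was far below. Hoxa4, Hoxb5, Hoxd8 and Hoxd10 were the members above the mark on FULA 1, and these 4 were above it on both lungs too.

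Other families of developmental regulators (the Dlx, Lhx, Pax, Pou, Nkx, Msx, Irx, Alx, Barx, Gbx and En genes and the sine oculis homeobox genes, 67 in all) did not show so low a share on FULA 1. There 30 of them (44.8%) were above the mark, against 40 (59.7%) after saline and 33 (49.3%) after urethane. Of the Hox genes, 14 (38.9%) were above the mark on the saline lung and not on FULA 1, and 0 the other way. Over all genes these shares were 7.17% and 15.7%, and in the other families 26.9% and 11.9%. With the urethane lung in place of the saline lung the Hox count was 13 (36.1%) and 0, against 5.98% and 15.2% of all genes and 16.4% and 11.9% of the other families. No test of the gap between the families was run.

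**Figure D1:**
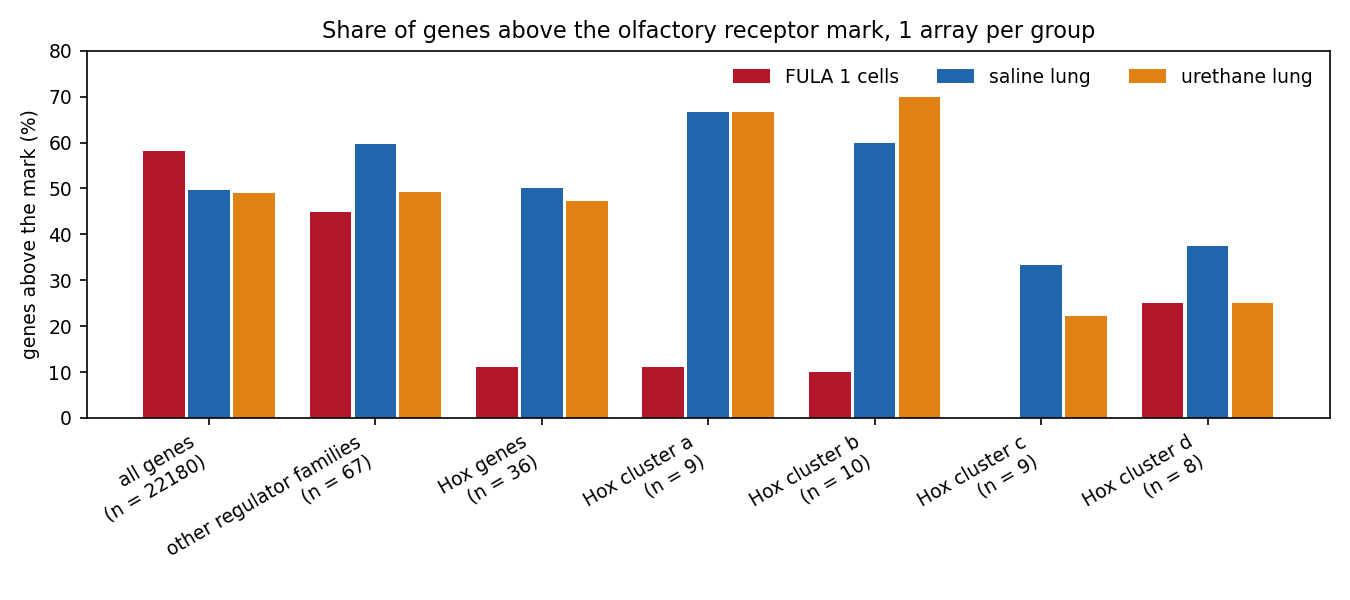
Bars give the percent of genes above the olfactory receptor mark (vertical axis, from 0) on each of the 3 arrays, for all genes, the other developmental regulator families, all Hox genes and each Hox cluster. The Hox bar is 11.1% on FULA 1 and 50.0% and 47.2% on the lungs, while the bars of all genes are 58.2%, 49.6% and 49.0%.

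Ranks moved the same way. The median percentile rank of the 36 members was 29.0 on FULA 1, 48.6 after saline and 50.4 after urethane. Olfactory receptors had median ranks of 8.05, 11.4 and 13.2, so the median Hox gene on FULA 1 still ranked above the median receptor, although Hoxb7 (12.8) and Hoxc4 (13.6) came near it. Of the 36 members, 33 ranked higher on the saline lung than on FULA 1, beside 51.1% of all genes, 76.1% of the other families and 60.5% of the receptors. On the urethane lung 32 ranked higher than on FULA 1, beside 51.1%, 85.1% and 64.1%. The rank of most members was therefore lower in the line, a direction that most genes of the other families shared. Placed among the receptors alone, 29 members (80.6%) exceeded a larger percent of them on the saline lung than on FULA 1, and 29 did so on the urethane lung. The shares of all genes were 28.0% and 25.8%, and those of the other families 49.3% and 56.7%. Between the lungs 16 of the 36 members (44.4%) ranked higher after urethane, close to the 46.8% of all genes. The shares were 40.3% of the other families and 51.0% of the receptors.

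**Figure D2:**
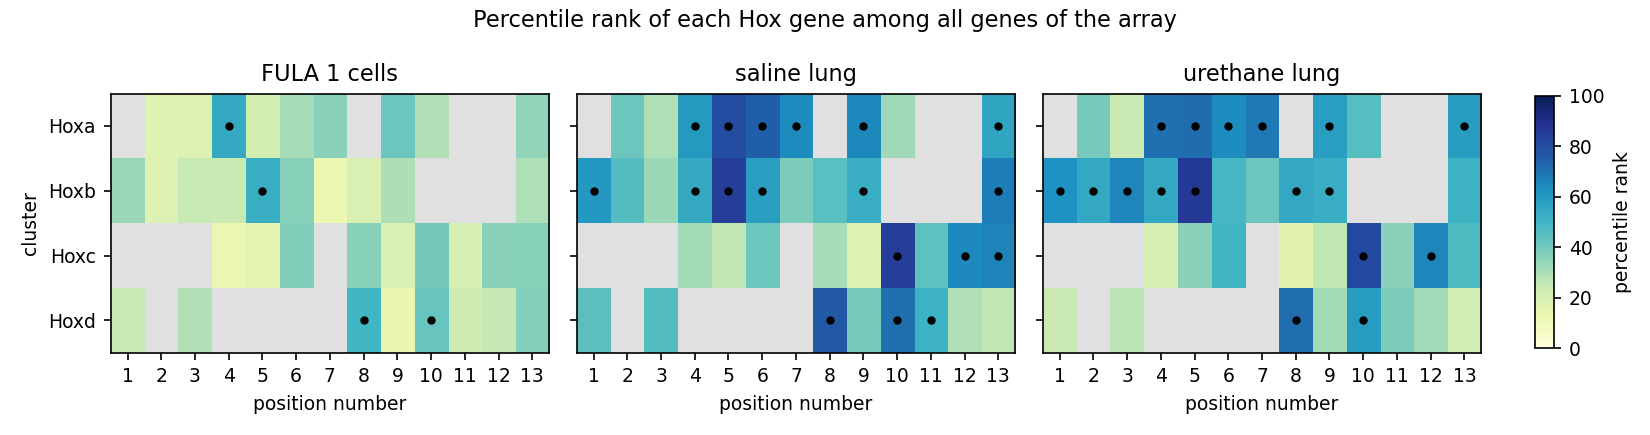
Each panel is 1 array, with the 4 clusters as its lines and the position numbers 1 to 13 as its columns. Colour gives the percentile rank of the gene among all genes of the array, black dots mark genes above the olfactory receptor mark, and grey cells have no member. The FULA 1 panel has 4 dots, the saline lung panel 18 and the urethane lung panel 17.

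By cluster, Hoxa and Hoxb genes made up most of the members above the mark in the lungs. Of the 9 Hoxa members, 1 was above the mark on FULA 1 and 6 on each lung. Of the 10 Hoxb members, 1 was above it on FULA 1, with 6 after saline and 7 after urethane. The 9 Hoxc members gave 0, 3 and 2, and the 8 Hoxd members 2, 3 and 2. Median ranks on the saline lung were 59.5 for Hoxa, 53.5 for Hoxb, 41.2 for Hoxc and 45.5 for Hoxd. On FULA 1 they were 30.7, 27.0, 35.7 and 27.1, so the Hoxc genes had the highest median rank in the line although none of them passed the mark. On the urethane lung the medians were 58.5, 54.4, 35.2 and 31.2.

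Position numbers gave no steady gradient. Of the 7 members at positions 1 to 3, 0 were above the mark on FULA 1, with 1 after saline and 3 after urethane. Positions 4 to 8, with 14 members, gave 3, 8 and 8, and positions 9 to 13, with 15 members, gave 1, 9 and 6. On the saline lung the median rank was 44.8, 55.9 and 53.0 in these 3 ranges. Position 5 had the highest median of any number on the saline lung (79.9 over 3 genes), and position 3 the lowest (32.8 over 3 genes). Across the 36 members, which are not independent replicates, Spearman's correlation of level with position number was 0.27 on FULA 1, 0.10 after saline and -0.03 after urethane.

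**Figure D3:**
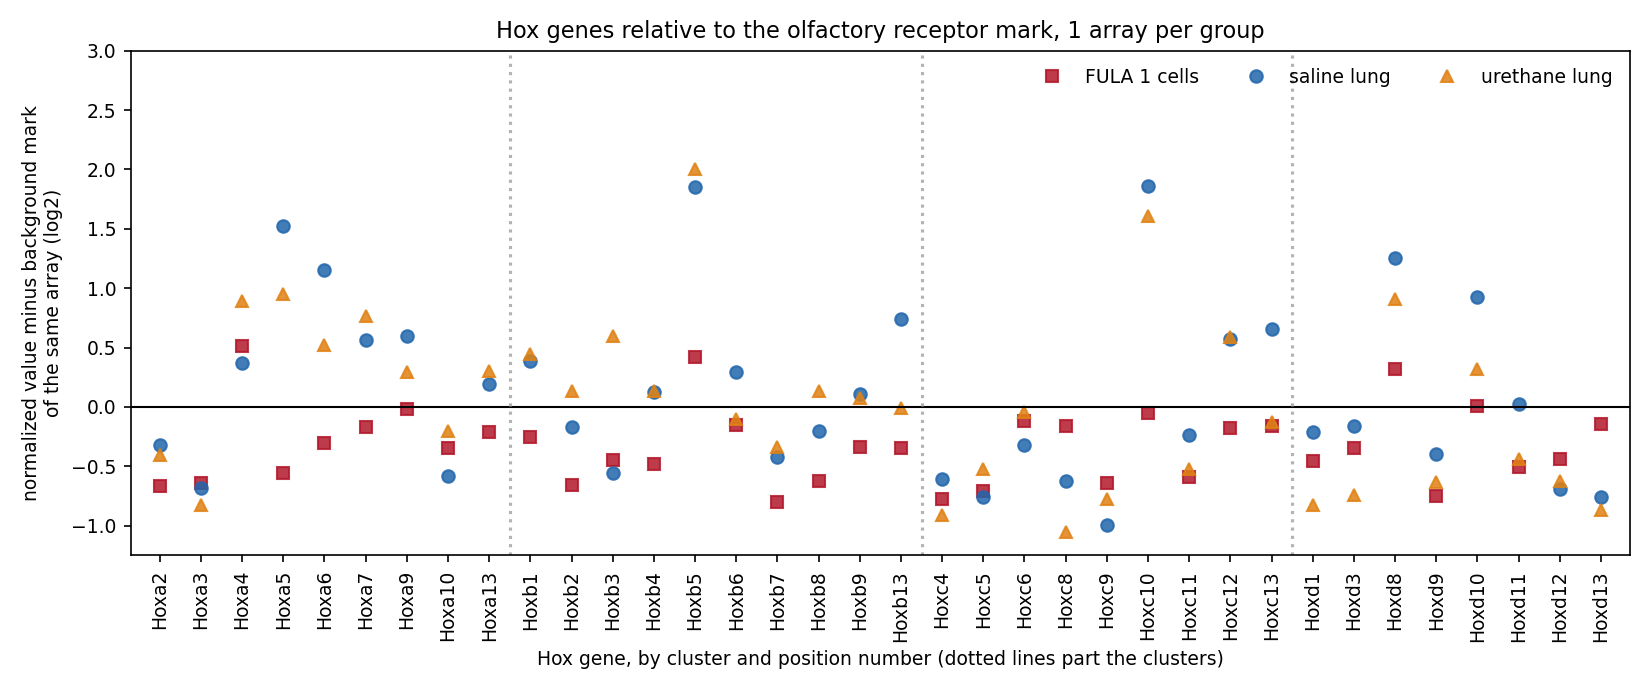
The vertical axis gives the normalized log2 value minus the mark of the same array for each of the 36 members, ordered along the horizontal axis by cluster and position. Squares are FULA 1, circles the saline lung and triangles the urethane lung. Points above 0 lie above background: 4 squares, 18 circles and 17 triangles.

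Members are described cluster by cluster, with normalized log2 values in the order FULA 1, saline lung, urethane lung. Where only the lung value passed the mark, the size of the difference is a bound that puts the FULA 1 mark in place of the FULA 1 value. Each bound thus includes the distance between the marks, -0.50 against the saline lung and -0.48 against the urethane lung. A member just over its lung mark has a bound near that size. In the Hoxa cluster, Hoxa5, which mice need for normal development of the airways and for breathing at birth, had 1.41, 3.99 and 3.39. It ranked at 21.1 in the line and at 79.9 and 71.3 in the lungs, and it was lower on FULA 1 by at least 2.03 than on the saline lung and by at least 1.43 than on the urethane lung. Hoxa6, its neighbour in the same cluster, had 1.66, 3.62 and 2.96. Both genes were well above background in both lungs and below it in the line. For Hoxa6 the bounds were 1.66 and 1.00, the second just short of 2-fold before rounding.

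Hoxa4, a gene of neck and upper trunk patterning, was above the mark on all 3 arrays. Its values were 2.48, 2.84 and 3.34, with ranks of 54.3, 59.5 and 70.3. The line and the saline lung were near each other, and the difference of -0.36 turned positive when the arrays were only shifted to a common median. Hoxa4 was the highest-ranking Hox gene on FULA 1. Relative to the receptors it exceeded 98.7% of them on FULA 1, 97.6% after saline and 98.6% after urethane.

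Hoxa7 had 1.79, 3.03 and 3.21 and was lower in the line by at least 1.07 against the saline lung and 1.24 against the urethane lung. Hoxa9, a regulator of blood stem cells that is active in many leukaemias, had 1.94, 3.07 and 2.73. On FULA 1 it was the nearest member under the mark, and its bounds were 1.10 and 0.77. Hoxa13, needed for digits and the urogenital tract, had 1.75, 2.66 and 2.75, with bounds of 0.70 and 0.79. These 3 genes were above the mark in both lungs only. Hoxa2, which patterns the hindbrain and the second pharyngeal arch, Hoxa3, needed for the thymus and parathyroid, and Hoxa10, a gene of the uterus, were below the mark on all 3 arrays.

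In the Hoxb cluster, Hoxb5, known from lung mesenchyme and airway branching, was the only member above the mark on FULA 1. Its values were 2.38, 4.32 and 4.45, and its ranks 52.6, 84.1 and 85.9. The differences were -1.93 against the saline lung and -2.07 against the urethane lung, both with values above the mark on either side. Its 2 probe sets gave 2.43 and 2.33 on FULA 1, 4.37 and 4.26 after saline, and 4.50 and 4.40 after urethane, with the same order of the arrays in both. On the urethane lung Hoxb5 was the highest-ranking Hox gene.

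Hoxb1, which gives facial motor neurons their identity in the hindbrain, had 1.71, 2.85 and 2.89. Its bounds were 0.89 and 0.93. Hoxb4, used to expand blood stem cells, had 1.48, 2.59 and 2.58, and Hoxb9, a gene of the thorax, had 1.63, 2.57 and 2.52. All 3 were above the mark in both lungs, by little for Hoxb4 and Hoxb9. The bounds were 0.63 and 0.62 for Hoxb4 and 0.61 and 0.56 for Hoxb9, mostly the distance between the marks.

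Hoxb6 and Hoxb13, the second a gene of the prostate and hindgut, passed the mark on the saline lung alone. Hoxb6 had 1.81, 2.76 and 2.34, and Hoxb13 had 1.62, 3.20 and 2.43. Against the saline lung the bounds were 0.80 and 1.24. Hoxb13 was just under the mark of the urethane lung, so its absence from that lung's count rests on a narrow margin. Hoxb7 was below the mark on all 3 arrays and had the lowest rank of any member on FULA 1 (12.8).

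Hoxb2, Hoxb3 and Hoxb8 passed the mark on the urethane lung alone. Hoxb3, a gene of the hindbrain and neck, had 1.52, 1.91 and 3.04, with ranks of 25.0, 32.8 and 65.0. Hoxb2 had 1.31, 2.29 and 2.58, and Hoxb8, which acts in the spinal cord and in myeloid cells, had 1.33, 2.26 and 2.58. On the urethane lung Hoxb2, Hoxb4 and Hoxb8 shared a single value with probe sets numbering 639 in all, so those levels have no order among them. The bounds against FULA 1 were 0.62 for Hoxb2, 1.08 for Hoxb3 and 0.62 for Hoxb8.

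The Hoxc cluster had no member above the mark on FULA 1. Hoxc10, which marks lumbar motor neurons and hindlimb, had 1.91, 4.33 and 4.05 and ranked at 39.5, 84.2 and 81.2. That was the highest rank of a Hox gene on the saline lung. It was lower on FULA 1 by at least 2.36 against the saline lung and 2.09 against the urethane lung, the largest bounds of any member. Hoxc12 had 1.79, 3.04 and 3.04, with bounds of 1.08 and 1.07. Hoxc13, a regulator of hair keratins, had 1.80, 3.12 and 2.31, above the mark on the saline lung only, with a bound of 1.16 there. Hoxc4, Hoxc5, Hoxc6, Hoxc8, Hoxc9 and Hoxc11 were below the mark on all 3 arrays. Among them Hoxc8, which acts in motor neurons of the forelimb, ranked at 36.1 on FULA 1, 30.6 after saline and 16.3 after urethane, the reverse of most members.

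In the Hoxd cluster, Hoxd8 and Hoxd10 passed the mark on all 3 arrays. Hoxd8 had 2.28, 3.72 and 3.36, a difference of -1.44 against the saline lung and -1.08 against the urethane lung. Hoxd10, a gene of lumbar motor neurons and the limb, had 1.97, 3.39 and 2.77, with differences of -1.42 and -0.79. On FULA 1 Hoxd10 lay only just over the mark. Hoxd11, needed for the forearm bones, had 1.46, 2.49 and 2.005 and passed the mark on the saline lung alone, by 0.02. Its bound of 0.53 was thus almost all the distance between the marks. Hoxd1, Hoxd3, Hoxd9, Hoxd12 and Hoxd13 were below it on all 3 arrays. Hoxd13, the digit gene, had 1.82, 1.71 and 1.57 and was with Hoxc8 and Hoxc9 among the 3 members that did not rank higher on the saline lung than on FULA 1.

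The mark is a threshold, and several members lay near it. On FULA 1 Hoxd10 (1.97) and Hoxd8 (2.28) were the nearest above it and Hoxa9 (1.94) and Hoxc10 (1.91) the nearest below. On the saline lung Hoxd11 (2.49) and Hoxb9 (2.57) were the nearest above and Hoxd3 (2.30) and Hoxb2 (2.29) the nearest below. On the urethane lung these were Hoxb9 (2.52) and Hoxb2 (2.58) above and Hoxb13 (2.43) and Hoxc6 (2.40) below. The 15 members below the mark on all 3 arrays were given no fold. Their values ran from 1.16 (Hoxb7) to 1.85 (Hoxc6) on FULA 1, from 1.48 (Hoxc9) to 2.30 (Hoxd3) after saline, and from 1.39 (Hoxc8) to 2.40 (Hoxc6) after urethane.

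Differences were also counted by a fixed rule of size. A gene was counted as changed at 2-fold or more (1 on the log2 scale) where the higher of its values reached a floor of 2.37, the median of all gene values. Between FULA 1 and the saline lung 18 of the 36 members passed the floor, and 14 of these were lower on FULA 1 and 0 higher. Among the 13590 genes past the floor, 22.0% were lower and 22.6% higher. On FULA 1 only 2 members, Hoxa4 and Hoxb5, reached the floor. The others passed it through the lung value and had to be lower in the line, so their count does not add to the levels above. Olfactory receptors past the floor were also mostly lower on FULA 1 (45 of 75, 60.0%), as were the other regulator families (26 of 46, 56.5%). With every value under the mark raised to it, 11 members (61.1% of those past the floor) stayed lower. The shares were 18.2% of all genes past the floor, 26.7% of the receptors and 41.3% of the other families. Hoxb1, Hoxb4 and Hoxd11 were the calls lost that way. The 11 come from the same members, and raised values include the distance of -0.50 between the marks. Their count therefore does not add to the levels either.

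Against the urethane lung 19 members passed the floor, with 12 lower on FULA 1 and 0 higher, beside 19.5% and 22.1% of 13264 genes. Here too all but Hoxa4 and Hoxb5 passed through the lung value and had to be lower. Of 67 receptors past that floor, 42 (62.7%) were lower, about the share of the Hox genes (63.2%), and of the other families 39.0% were. Held at the mark, 7 members stayed lower, or 36.8% of those past the floor, beside 16.3% of all genes, 32.8% of the receptors and 34.1% of the other families. That count has the same limits, with a distance of -0.48 between the marks. Both comparisons use the FULA 1 array and so are not independent of each other. The median difference over all 36 members was -0.92 against the saline lung and -0.79 against the urethane lung, while over all genes it was -0.11 and -0.08 and over the other families -0.90 and -0.63. Held at the mark, the Hox medians became -0.50 and -0.48, the distance between the marks.

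The split of calls depended on the scale. In the comparison with the saline lung, the normalized values gave 3073 genes higher and 2994 lower, moving the arrays to equal medians gave 7058 and 1785, and the deposited values gave 21703 and 20. As deposited, all 36 Hox genes were higher on FULA 1, by a median of 3.78 against a median of 4.80 over all genes. Against the urethane lung the deposited medians were 2.65 for Hox genes and 3.69 for all genes. Each of the 14 and 12 members counted as lower kept its sign under the median shift and the lowess correction. These members were picked for being lower, so the kept sign is no separate support. The FULA 1 quantiles keep the order of ranks, so under them the sign of a member with 1 probe set could not turn. Under lowess the calls against the saline lung nevertheless fell from 14 to 7 of 18, and those against the urethane lung from 12 to 10 of 19. Over all genes lowess gave 3010 lower and 2142 higher of 13590 against the saline lung. Against the urethane lung it gave 2743 lower and 2160 higher of 13264.

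**Figure D4:**
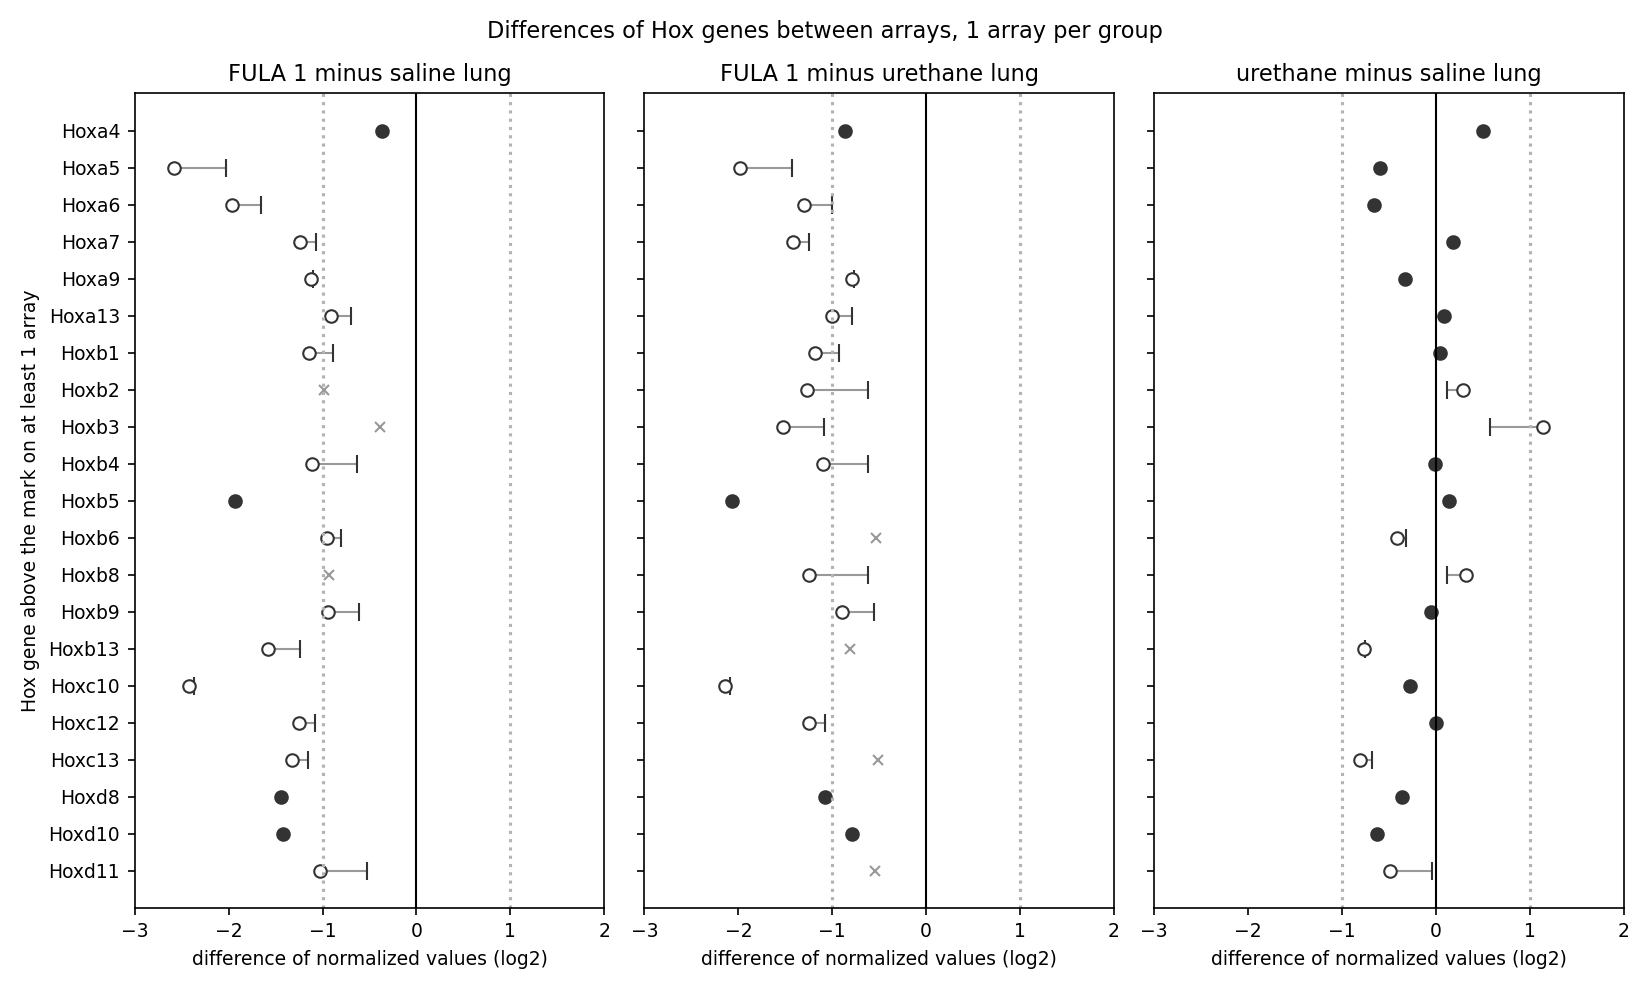
Horizontal position gives the log2 difference of each of the 21 members above the mark on at least 1 array, for FULA 1 minus saline lung, FULA 1 minus urethane lung and urethane lung minus saline lung. Filled points have both values above the mark, open circles give the normalized difference with a line to the bound, crosses have both values below the mark, and dotted lines stand at 2-fold. Points against the saline lung lie at or left of -0.36, and those between the lungs cluster around 0.

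Of the lungs, 3 of the 36 members (8.33%) passed the mark on the urethane lung alone and 4 (11.1%) on the saline lung alone. Over all genes these shares were 4.73% and 5.42%, and in the other families 2.99% and 13.4%. Few members differed by 2-fold between the lungs, a share near that of all genes. Of the 22 members past the floor, 1 (4.55%) was at least 2-fold higher after urethane and 0 lower, beside 3.27% and 1.31% of 12519 genes. The 1 was Hoxb3, at a difference of 1.14, and held at the mark its bound was 0.58, so 0 members remained past 2-fold in either direction, beside 2.03% higher and 0.759% lower among all genes. The median difference over the members was -0.12, against -0.06 over all genes. Hoxa4 was higher after urethane by 0.50, and Hoxc13 had 3.12 after saline and 2.31 after urethane. Hoxb4, Hoxb9 and Hoxc12 had differences near 0, the widest -0.05 for Hoxb9, with signs that changed with the scaling. Across the 36 members Spearman's correlation of levels was 0.800 from lung to lung. The line correlated at 0.573 with the lung after saline and at 0.507 with the lung after urethane. Over all genes the same values were 0.932, 0.743 and 0.771. The arrays share their probe sets, and 15 of the 36 members lay below the mark on every array.

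Partners of the Hox proteins were measured beside them. TALE homeodomain cofactors bind DNA together with Hox proteins, and 6, 5 and 6 of the 8 measured were above the mark. Meis1, the partner of Hoxa9 in blood cells, had 1.14 on FULA 1, 4.47 after saline and 3.61 after urethane. It was lower in the line by at least 2.51 and 1.65. Pknox2 had 1.49, 3.52 and 3.03, lower by at least 1.56 against the saline lung, while Pbx2 had 3.40, 1.81 and 3.21. Pbx3 had 4.31, 4.31 and 3.96, but at equal medians it was higher in the line by 1.64 and 1.85. Against the saline lung 1 cofactor was at least 2-fold higher on FULA 1 (Pbx2) and 2 were lower, or 3 and 2 with the arrays moved to equal medians. The saline value of Pbx2 was below the mark, so its difference was at least 0.94, and with values held at the mark 0 cofactors were higher and 2 lower.

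Most chromatin regulators of Hox clusters were above the mark. Of 18 Polycomb genes measured, 17, 14 and 15 were above the mark, and against the saline lung 2 were higher and 1 lower on FULA 1. Ezh2, the enzyme that places the repressive methyl mark on histone H3, had 6.61, 4.90 and 4.51, a difference of 1.71. Mtf2, a Polycomb accessory protein, had 3.61, 1.55 and 1.47, and Phf1, another, had 3.38, 4.47 and 4.75. Of 14 trithorax and MLL genes measured, all 14 were above the mark on every array, and 6 were higher and 1 lower on FULA 1. Kmt2a, which encodes the MLL1 methyltransferase, had 6.09, 3.94 and 5.15, and Kdm6a, a demethylase that removes the Polycomb mark, had 5.84, 3.66 and 4.22. Setd1b was the gene that was lower, with 3.25, 4.28 and 3.97. These counts depended on the scale: with the arrays moved to equal medians, 11 Polycomb and 11 trithorax and MLL genes were higher and 0 lower, and Phf1 and Setd1b turned to 0.28 and 0.31. Ezh2, Kmt2a, Kdm6a and Mtf2 were higher on FULA 1 under that scaling as well. Kmt2a was also 2-fold higher after urethane than after saline, at a difference of 1.20.

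Retinoic acid induces Hox genes in order along the cluster, and Cdx proteins act above them. Of 18 genes of these routes, 9, 10 and 9 were above the mark, with 1 higher and 6 lower on FULA 1 than on the saline lung, or 2 and 3 at equal medians and 0 and 6 with values held at the mark. Aldh1a2, which makes retinoic acid in mesenchyme, had 1.72, 3.98 and 3.39 and was lower in the line by at least 2.02 against the saline lung. Aldh1a3, a sister enzyme, had 2.86, 1.59 and 1.77, higher in the line by at least 0.39 than on the saline lung. Crabp1, which carries retinoic acid in the cytoplasm, had 1.54, 3.32 and 2.18. Cdx2, the intestinal regulator, had 2.62, 1.97 and 1.28. It is also 1 of 6 genes of the ParaHox group and its relatives, of which 2 were above the mark on each array and 2 were lower and 0 higher on FULA 1 than on the saline lung, or 0 and 1 at equal medians and 1 and 0 with values held at the mark. Gsx2, a ParaHox gene of the forebrain, had 2.26, 3.73 and 3.95, and Gsx1 had 1.74, 2.76 and 2.60.

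The listed non-coding RNAs of the clusters were below the mark on FULA 1 where they had a row of their own. The clusters carry microRNAs of the miR-10 and miR-196 families, which share their seeds across clusters and are known to target Hox messages. They are shown to make the shared seed visible, from RefSeq (GRCm38.p6), 5′ to 3′, with the seed (bases 2 to 8) in capitals.
mmu-miR-10a-5p: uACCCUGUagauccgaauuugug
mmu-miR-10b-5p: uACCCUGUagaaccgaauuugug
mmu-miR-196a-5p: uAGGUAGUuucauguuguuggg
mmu-miR-196b-5p: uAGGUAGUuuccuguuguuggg
The miR-10 pair shares the seed ACCCUGU and the miR-196 pair the seed AGGUAGU. Of 17 listed non-coding genes 7 were measured, and 0, 4 and 3 were above the mark. Mir196a-1 had 1.38 on FULA 1, 3.34 after saline and 2.94 after urethane, lower in the line by at least 1.37 and 0.98. Such a probe set reads the host transcript as well as the precursor, and the mature microRNA was not measured. Hoxaas3, antisense to Hoxa5 and Hoxa6, had 1.89, 3.15 and 2.58, and Hoxd3os1 had 1.78, 2.85 and 2.95. Mir615, inside Hoxc5, was above the mark after saline alone, at 2.52, against 1.42 on FULA 1. Mir10b and Hotair, the antisense RNA of the Hoxc cluster, were below the mark on all 3 arrays, with 1.60, 2.12 and 1.68 for Hotair. Hottip was not analysed here.

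Because of these overlaps, the names of some members are less certain than others. Of the 36 members, 17 overlap another gene in RefSeq's gene table, Hoxa3 overlapping Hoxa4, Hoxa5 and Hoxa6 and the antisense genes Hoxaas2 and Hoxaas3. The labels do not say whether the probe sets tell strands apart. A probe set annotated to both Hoxa3 and an antisense transcript had 2.15, 4.17 and 3.61, above the mark on all 3 arrays, while Hoxa3's own had 1.32, 1.79 and 1.62. A probe set shared by Hoxa11 and its antisense gene had 1.61, 2.88 and 1.92, and a further one with the same annotation had 1.43, 1.92 and 1.37, below the mark on all 3 arrays.

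Genes beside the clusters were mostly above the mark in the line. Of 12 neighbours, 9, 11 and 10 were above the mark, and against the saline lung 3 were higher and 1 lower on FULA 1, or 6 and 2 at equal medians and 2 and 1 with values held at the mark. Evx1 and Evx2, the even-skipped homeobox genes at the ends of the Hoxa and Hoxd clusters, had 1.98, 2.71 and 1.92 and 1.94, 2.67 and 2.89. Cbx5, a heterochromatin protein gene near Hoxc, had 7.95, 5.70 and 5.96. Lnpk, a gene past the end of Hoxd, had 3.19, 1.29 and 1.58, a difference of at least 0.73 from the saline lung, and Ttll6 beside Hoxb had 1.94, 3.30 and 3.39. Skap1 had 1.52, 2.50 and 2.79.

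Cell type markers moved with the groups, and their part in the Hox differences was not tested. All 10 epithelial markers were above the mark on FULA 1 and 9 on each lung, so the count does not check the carcinoma label. Against the saline lung 4 of them were higher and 2 lower in the line, from Krt8 (10.27, 5.43 and 5.60) and Krt18 at the upper end to Cldn3 (-1.12, or 0.40 at equal medians) and Cldn7 (-2.23) at the lower. Of 12 fibroblast markers, 5 were above the mark on FULA 1 and 11 on each lung, and 9 were lower and 1 higher in the line than on the saline lung. Their summed linear signal was 273 on FULA 1, 1464 after saline and 1383 after urethane. Most of the FULA 1 sum was Npnt (7.78, 6.36 and 6.64), a matrix protein gene and the marker that was higher in the line, and without it the sums were 52.9, 1382 and 1284. Dcn, a matrix proteoglycan of fibroblasts, had 1.69 on FULA 1, below its mark, and 7.45 and 7.02 in the lungs.

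Smooth muscle markers numbered 3, 6 and 6 of 6 above the mark, with summed signals of 27.2, 182 and 159. Endothelial markers numbered 5, 8 and 8 of 8, with 38.7, 1014 and 851. For leukocytes the counts were 2, 5 and 5 of 7, with 32.1, 301 and 253, and for mesothelium 2, 4 and 3 of 4, with 111, 40.6 and 45.5. The mesothelial sum in the line came with Msln at 6.66, which tumours also make. Club cells gave 0, 3 and 3 of 3 (9.12, 3814 and 3881), and alveolar type II cells 6, 8 and 8 of 8 (44.4, 3243 and 3921). Of the type II markers, 7 were at least 2-fold lower and 0 higher on FULA 1 than on the saline lung. Against the urethane lung these counts were 8 and 0. Abca3 was the marker not lower than on the saline lung, with 3.77, 2.98 and 5.21. Without Abca3 the type II sums were 30.7, 3235 and 3884. Among the epithelial markers the sums were 1477, 210 and 229, and 239, 166 and 180.0 without Krt8.

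Of 14 genes of the lung lineage, 12, 13 and 12 were above the mark, and 1 was higher and 9 lower on FULA 1 than on the saline lung, or 3 and 6 at equal medians. Foxf1, a mesenchymal regulator of the lung, had 2.50, 7.38 and 7.34, a difference of -4.88. Hopx, a gene of alveolar type I cells, had 1.95, 5.49 and 4.85. Nkx2-1, which specifies lung epithelium, had 3.19, 4.37 and 4.59, a difference of -1.19 that became 0.12 at equal medians, whereas the epithelial pioneer factor Foxa1 had 6.07, 3.78 and 3.79. Sox9, of the distal lung buds, had 4.32, 3.34 and 2.20. Foxa2 and Sox2, further epithelial regulators, had differences from the saline lung of -1.62 and -1.60.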

How the data were processed

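RNA was measured on 3 arrays, 1 per group. The authors deposited 1 log2 value per probe set and array, with RMA per the submitters' processing notes and GeneSpring 12.5 per the design text. Other settings: not given in the sources used here. All 3 columns were used, with 0 columns of other samples.

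Because the deposited log2 columns lay on unequal scales, quantile normalization was run on the 41345 probe sets, with the average of the ranked columns as target. Of these, 23521 had 1 symbol in the platform annotation and 1814 several. A gene was the mean of its probe sets. Symbols were updated through RefSeq's table (GRCm38.p6). Marks were set on deposited gene values and carried to the normalized scale. The members and the 16 gene lists were chosen with earlier results of these data known. Values on all arrays are given for each member above the mark on at least 1. From other lists, the highest and lowest differences among members above the mark were to be named, with Meis1, Ezh2, Kmt2a, Hotair, Hottip and Nkx2-1; some are not reported here. Lower calls needed 2-fold and the floor of 2.37. No p-value was computed, since precision is limited by the number of arrays. Alternatives were other scalings, marks, folds, floors and probe set rules; those for the other gene lists were chosen after seeing the data. The computation was tested on simulated data, with changes planted only in genes well above the mark on the saline lung. Most Hox genes lay lower than those, so that test does not cover their range. Software was Python 3.11.15, numpy 2.4.6, pandas 2.3.3, statsmodels 0.14.6 (lowess, span 0.3) and matplotlib 3.10.9.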

Additional observations from a re-analysis of the deposited data

Results flagged for a closer look

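A probe set annotated to both Hoxb3 and Hoxb2, which was not used for any gene because of its several symbols, gave signal in data outside the comparisons. On FULA 1 it had a normalized log2 value of 2.10, above the mark of 1.96. It was not above the mark on the saline lung (2.23) or the urethane lung (1.90). Hoxb2 and Hoxb3 themselves were below the mark on FULA 1, at 1.31 and 1.52. Which of the genes it read was not tested.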

How the results depend on the processing

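No paired analysis was possible because each group has 1 array and the labels give no replicate numbers. For the same reason no replicate was left out. The limit is signal over background: 15 members lay below the mark on all arrays, and ties make many lung values coarse. The cause of the changes below was not tested.

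The count of Hox genes above the mark on FULA 1 was 14 with the mark at the 90th percentile of the receptors, where the lungs gave 25 (saline) and 22 (urethane), and 0 at the 99th, where they gave 5 and 2. Shares of all genes at these marks are not given here. Median ranks became 28.6 (FULA 1), 48.0 (saline) and 49.7 (urethane) with a gene taken as its highest probe set, and 28.9 or 29.0 on FULA 1 with ties ranked lowest or highest.

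For FULA 1 against the saline lung, 36 were higher and 0 lower as deposited, beside 21703 and 20 of 21820 genes. The lower count was 7 after lowess, 2 at 4-fold and 4 with the floor at the 75th percentile. The median was 3.78 as deposited, -1.11 after the median shift, -1.65 with the FULA 1 quantiles, -0.55 after lowess and -0.50 held at the mark. Against the urethane lung, 36 were higher and 0 lower as deposited, beside 21603 and 22 of 21820 genes. The lower count was 7 held at the mark, 2 at 4-fold and 2 with the higher floor. The median was 2.65 as deposited, then -1.09, -1.36, -0.56 and -0.48 in the same order. Between the lungs, deposited values gave 5 higher of 8 past the floor, beside 5180 of 8102 genes. The median shift, lowess, the mark, 4-fold and the higher floor each gave 0. The lower count was 2 of 22 with the FULA 1 quantiles, beside 897 of 12515 genes, and 5 at 1.5-fold. For all comparisons, shares of all genes at other folds and with the higher floor are not given here. The median was 1.07 as deposited, then -0.069, -0.22, -0.026 and -0.022.

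Reversed differences were those of called genes as deposited. Against the saline lung they were 2.33 for Hoxa5, 3.13 for Hoxa6, 3.80 for Hoxa7, 4.05 for Hoxa9, 3.80 for Hoxb1, 3.51 for Hoxb4, 3.76 for Hoxb5, 3.38 for Hoxb13, 2.91 for Hoxc10, 3.79 for Hoxc12, 3.77 for Hoxc13, 4.12 for Hoxd8, 3.88 for Hoxd10 and 3.54 for Hoxd11. Against the urethane lung they were 1.57 for Hoxa5, 2.41 for Hoxa6, 2.43 for Hoxa7, 2.53 for Hoxb1, 2.01 for Hoxb2, 2.07 for Hoxb3, 2.33 for Hoxb4, 2.41 for Hoxb5, 2.06 for Hoxb8, 1.92 for Hoxc10, 2.57 for Hoxc12 and 3.16 for Hoxd8.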
